A study of Mus musculus with 6 samples.

Results

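The 35 genes described here are DNA replication genes, taken by symbol from a deposited table of 22740 genes. They are genes of origin licensing, the replisome, nucleotide supply and S phase. All 35 symbols were present once, and all 35 were among the 11921 genes that passed the filter on low counts. The rule goes by symbol and not by a measured value, but the list was drawn up with earlier results of these data known.

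The data are RNA counts from B16-F3, a mouse melanoma cell line grown in serum-containing medium. Its cells were sorted by flow cytometry, through the way melanin scatters light, into cells rich in pigment (HPC, high-pigmented) and cells poor in it (LPC, low-pigmented). Each population has 3 libraries, numbered 1 to 3, and no agent or genetic change separates the groups. All 6 libraries come from 1 line, and the labels do not say whether equal numbers mark a shared culture or sort, or whether the replicates are separate cultures. The p-values therefore rest on library-to-library spread alone, and part of that may be technical.

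Before a cell copies its DNA, the origin recognition complex, CDC6 and CDT1 load rings of MCM2 to MCM7 onto origins, a step called licensing. On entry into S phase, cyclin E with CDK2 and further factors turn each ring into an active helicase by adding CDC45 and the GINS complex. Polymerases then copy the strands behind it, held by the sliding clamp PCNA, while nucleotide-making enzymes and histone chaperones supply material. Many of these genes are transcribed in a wave at the transition from G1 to S phase, under E2F transcription factors, so their mRNA is widely read as a sign of proliferating cells.

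Total counts were 18131623, 22186743 and 19721577 in HPC libraries 1, 2 and 3, and 14695822, 18810435 and 14881833 in LPC libraries 1, 2 and 3. The 35 genes together took 0.425%, 0.531% and 0.417% of the counts in HPC and 0.581%, 0.439% and 0.282% in LPC. The lowest count of any of them in any library was 126 and the highest 16947. The 7 melanocyte markers checked summed to 33375 to 36845 CPM (counts scaled to library size with TMM factors) in HPC and 32179 to 34623 CPM in LPC. Ptprc, Cd3e, Itgam, Cdh5, Krt5 and Krt14, markers of immune, endothelial and epidermal cells, had no count in any library. The other markers of these lists had low counts. All 5 immune markers summed to 6.94 to 12.9 CPM in HPC and 2.63 to 7.09 CPM in LPC. The 4 stroma markers summed to 2.61 to 3.00 CPM in HPC and 3.01 to 3.98 CPM in LPC. The 3 keratinocyte markers summed to 2.61 to 4.38 CPM in HPC and 2.23 to 3.01 CPM in LPC. Tyr, the tyrosinase gene of melanin synthesis, stood at 908, 855 and 994 CPM in HPC against 261, 62.1 and 238 CPM in LPC, so the groups did not overlap for it. Its log2 fold change was 2.30 without a replicate block (edgeR adjusted p = 0.17) and 2.52 under the block (edgeR adjusted p = 0.021). Tyr was singled out because pigment defined the sort. Of the 7 melanocyte markers the log2 fold change was positive for 4 and negative for 3 (median 0.047), and the groups overlapped for all but Tyr.

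No difference between HPC and LPC beyond the spread between replicates was detected for any of the 35 DNA replication genes. None of the 35 passed the test of HPC against LPC (edgeR quasi-likelihood test, Benjamini-Hochberg adjusted p under 0.05), against 5 of 11921 genes, 0.0419%, over the whole table. None had an unadjusted p under 0.05, while 9.37% of all genes did, and DESeq2 and limma-voom called none as well. Their median log2 fold change, HPC over LPC, was 0.063, beside -0.0091 for all tested genes, with 22 positive and 13 negative values. Over all 11921 tested genes, 5746 values were positive and 6175 negative.

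What the genes did show was a shared pattern across single libraries. In the libraries numbered 1, all 35 genes were lower in HPC than in LPC, with a median difference of -0.39 on the log2 CPM scale. In those numbered 2, 33 of 35 were higher in HPC, with a median of 0.26, and in those numbered 3 all 35 were higher, with a median of 0.51. The order lower, higher, higher held for 33 of the 35 genes (94.3%) and for 15.2% of all tested genes. No gene of the 35 kept 1 sign over all numbers, whereas 19.6% of all genes were higher and 21.3% lower in HPC under all 3.

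LPC replicate 3 was the lowest of the 6 libraries for 34 of the 35 genes (97.1%), against 17.8% of all tested genes. The exception was Ccne1, which was lowest in LPC replicate 2. LPC replicate 1 was the highest library for 26 genes and HPC replicate 2 for the other 9. Summed over the 35 genes, the level was 4325, 5314 and 4183 CPM in HPC libraries 1, 2 and 3 and 5762, 4363 and 2813 CPM in LPC libraries 1, 2 and 3. The highest and the lowest sum therefore both belonged to LPC, and the 3 HPC libraries lay between them. Those LPC libraries had nearly equal depth, at 14695822 and 14881833 counts, and mitochondrial genes took 2.46% and 2.56% of their counts. In a bulk sample, fewer cells in S phase and less of these mRNAs per cell cannot be told apart.

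**Figure D1:**
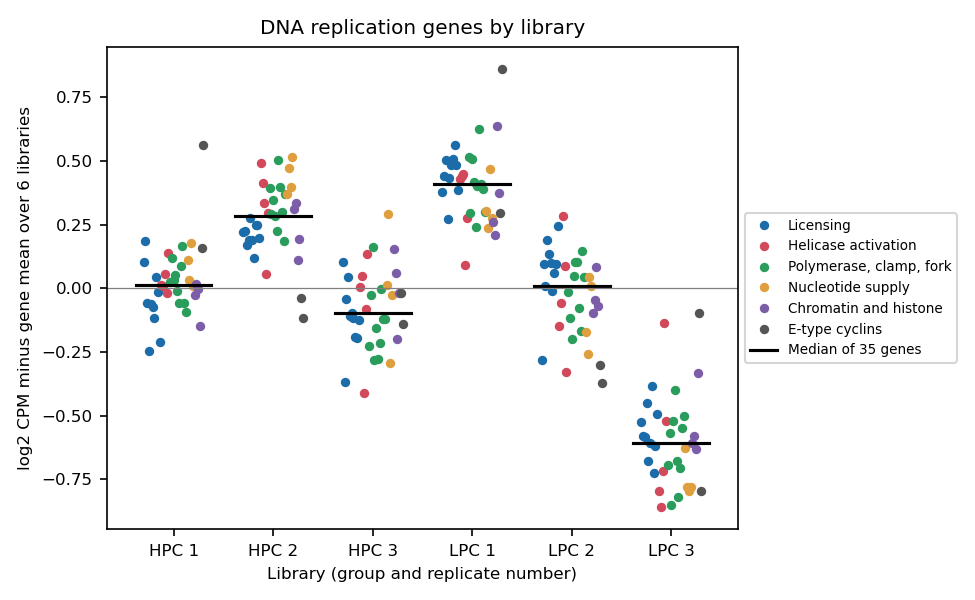
Each point is 1 of the 35 DNA replication genes in 1 library, as log2 CPM minus that gene's mean over the 6 libraries, coloured by role, with the median of the 35 genes as a bar. The median stood at 0.28 in HPC replicate 2 and 0.41 in LPC replicate 1, and at -0.61 in LPC replicate 3, with the other 3 libraries between -0.10 and 0.01.

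The spread within LPC was the larger one for all 35 genes, measured as the SD of log2 CPM over 3 libraries, against 63.1% of all tested genes. The median SD of the 35 genes was 0.21 in HPC and 0.52 in LPC, beside 0.17 and 0.21 for all tested genes. Groups did not overlap for 0 of the 35 genes in either direction, while among all genes 7.16% lay wholly higher and 7.18% wholly lower in HPC.

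Licensing genes are described first. Mcm2 encodes a subunit of the helicase ring and stood at 606, 764 and 586 CPM in HPC against 852, 692 and 395 CPM in LPC, the values given in the order of replicates 1, 2 and 3 here and below. Its means were 652 ± 97.7 CPM over the 3 HPC libraries and 646 ± 232 CPM over the 3 LPC libraries (SD), and it did not pass (log2 fold change 0.012, SE 0.26, 95% interval -0.58 to 0.60, edgeR adjusted p = 0.996). LPC replicate 1 was 2.16-fold above LPC replicate 3, which lies far outside the difference between the group means.

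The other ring subunits are given next. Mcm3 stood at 252, 303 and 248 CPM in HPC against 371, 284 and 174 CPM in LPC. Mcm5 stood at 226, 261 and 192 CPM in HPC against 324, 229 and 133 CPM in LPC, and Mcm6 at 331, 397 and 292 CPM in HPC against 467, 357 and 218 CPM in LPC. For all of these, LPC replicate 1 was the highest library and LPC replicate 3 the lowest. Mcm4 stood at 138, 163 and 139 CPM in HPC against 214, 149 and 115 CPM in LPC, and Mcm7 at 122, 162 and 130.2 CPM in HPC against 185, 168 and 101 CPM in LPC. Their log2 fold changes, -0.12 and -0.13, were among the 3 lowest of the 35 genes, and neither passed (edgeR adjusted p = 0.92 for both). Over the 6 subunits the median difference was -0.54, 0.14 and 0.47 in the libraries numbered 1, 2 and 3.

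**Figure D2:**
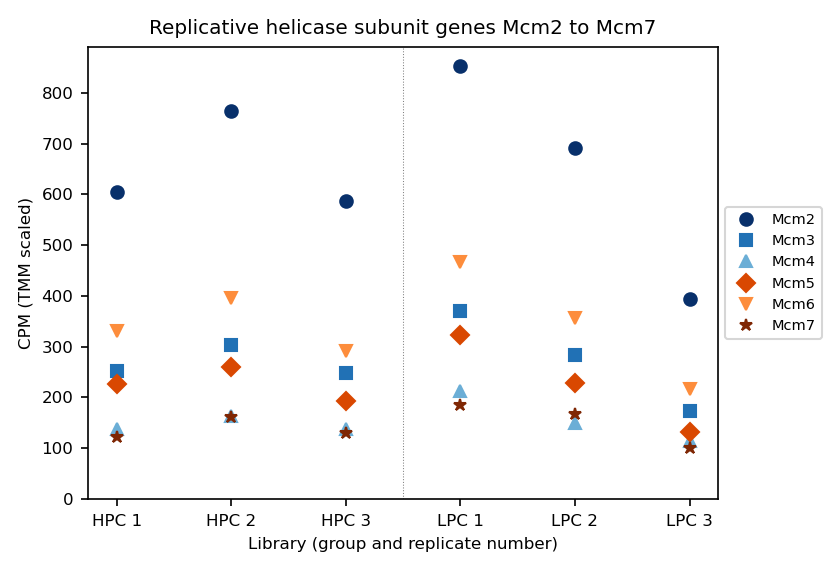
Points give the CPM of the 6 genes of the helicase ring in each library, HPC left of LPC. For every subunit LPC replicate 1 was the highest and LPC replicate 3 the lowest library, with Mcm2 at 852 and 395 CPM in those 2, and the HPC libraries lay between them.

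Mcm7 overlaps Mir106b, Mir93 and Mir25 on its own strand and Ap4m1 and Cops6 on the opposite strand, so reads of those genes may have entered its count. In GENCODE M21 on GRCm38, Mcm2 lies at chr6:88883474-88898780, Mcm3 at chr1:20802968-20820312, Mcm4 at chr16:15623897-15637400, Mcm5 at chr8:75109569-75128439, Mcm6 at chr1:128331590-128359664 and Mcm7 at chr5:138164583-138172422, with no overlap for Mcm2 to Mcm6.

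Because the 6 ring genes shared their highest and lowest libraries, promoters are shown with the words that E2F factors and the CCAAT-binding factor NF-Y are known to recognise. RefSeq promoter windows on GRCm38.p6, from 250 bases before to 50 bases after a transcription start, were found for 28 of the 35 genes, in 31 windows. The E2F words searched were TTTGGCGC, TTTGCCGC, TTTCGCGC and TTTCCCGC, on both strands. They were present in 11 of the 31 windows (35.5%), against 2.26% of 32851 windows of the same length over all genes. Those 11 genes were Cdc6, Cdt1, Gins3, Mcm3, Mcm5, Mcm6, Mcm7, Orc1, Pola1, Rfc3 and Uhrf1. The word CCAAT, on either strand, was in 22 of the 31 windows (71%), against 37.4% of all windows. Many of these genes are known to be under E2F factors, so a higher share could be foreseen from the choice of genes. The windows over all genes were not limited to genes that passed the filter. A match describes letters only, and says nothing of binding. Nor does a window without these exact words show that a gene lacks sites for E2F factors.

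Windows of 4 ring subunits that hold E2F words, and of Mcm2, Pcna and Ccne1, which hold none, are printed below, 5′ to 3′ on the gene's strand, with E2F words and CCAAT (or its reverse complement) in capitals. Overlapping matches run together, as in the 2 opposed E2F words of Mcm5. The windows are chr1:20820263-20820562 on the minus strand for Mcm3, chr8:75109259-75109558 on the plus strand for Mcm5, chr1:128359656-128359955 on the minus strand for Mcm6 and chr5:138171834-138172133 on the minus strand for Mcm7, the other of its 2 windows having no E2F word. They are chr6:88898731-88899030 on the minus strand for Mcm2, chr2:132253131-132253430 on the minus strand for Pcna and chr7:38107441-38107740 on the minus strand for Ccne1.
Mcm3: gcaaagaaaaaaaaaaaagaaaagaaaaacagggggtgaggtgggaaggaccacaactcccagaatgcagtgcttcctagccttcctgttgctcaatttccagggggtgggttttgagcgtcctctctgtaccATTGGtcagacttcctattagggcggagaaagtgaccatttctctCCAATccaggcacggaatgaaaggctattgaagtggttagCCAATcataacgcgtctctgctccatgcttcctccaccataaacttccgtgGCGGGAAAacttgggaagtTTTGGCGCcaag
Mcm5: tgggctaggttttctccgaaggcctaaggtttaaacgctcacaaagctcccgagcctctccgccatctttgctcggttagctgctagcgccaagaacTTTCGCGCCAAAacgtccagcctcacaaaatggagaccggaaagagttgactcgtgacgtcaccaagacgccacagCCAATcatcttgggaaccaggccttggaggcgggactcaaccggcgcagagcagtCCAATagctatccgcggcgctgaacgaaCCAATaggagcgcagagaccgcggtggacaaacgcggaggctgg
Mcm6: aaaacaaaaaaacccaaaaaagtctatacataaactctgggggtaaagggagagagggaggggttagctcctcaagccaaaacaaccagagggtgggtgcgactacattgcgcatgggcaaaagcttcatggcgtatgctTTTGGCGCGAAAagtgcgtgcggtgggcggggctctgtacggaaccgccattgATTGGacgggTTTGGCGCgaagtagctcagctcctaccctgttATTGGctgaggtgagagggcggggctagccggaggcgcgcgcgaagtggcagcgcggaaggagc
Mcm7: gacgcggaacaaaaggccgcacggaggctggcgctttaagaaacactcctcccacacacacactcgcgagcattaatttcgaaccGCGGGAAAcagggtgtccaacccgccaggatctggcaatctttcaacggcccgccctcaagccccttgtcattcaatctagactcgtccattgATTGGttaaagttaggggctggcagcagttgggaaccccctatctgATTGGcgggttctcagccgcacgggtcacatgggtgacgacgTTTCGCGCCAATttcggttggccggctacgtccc
Mcm2: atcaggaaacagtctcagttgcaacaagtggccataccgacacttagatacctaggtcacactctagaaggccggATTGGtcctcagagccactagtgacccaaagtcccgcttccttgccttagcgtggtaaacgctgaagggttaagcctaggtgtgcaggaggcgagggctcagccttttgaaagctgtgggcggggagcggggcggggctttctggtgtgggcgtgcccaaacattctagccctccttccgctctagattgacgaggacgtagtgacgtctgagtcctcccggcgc
Pcna: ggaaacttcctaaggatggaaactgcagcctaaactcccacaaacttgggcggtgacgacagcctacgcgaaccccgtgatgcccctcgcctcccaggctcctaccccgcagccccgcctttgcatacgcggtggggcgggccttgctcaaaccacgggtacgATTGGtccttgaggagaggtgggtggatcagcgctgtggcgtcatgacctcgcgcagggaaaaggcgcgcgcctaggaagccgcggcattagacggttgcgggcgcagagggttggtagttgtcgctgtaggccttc
Ccne1: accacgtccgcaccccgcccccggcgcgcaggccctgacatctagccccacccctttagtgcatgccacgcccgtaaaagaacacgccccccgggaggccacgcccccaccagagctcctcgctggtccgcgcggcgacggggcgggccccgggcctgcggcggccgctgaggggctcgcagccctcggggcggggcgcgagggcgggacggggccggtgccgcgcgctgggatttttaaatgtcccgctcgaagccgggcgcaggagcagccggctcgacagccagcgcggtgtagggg

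Mcm2, without an E2F word in this window, and Mcm3, Mcm5 and Mcm6, which have 2 or 3, had the same order of the 6 libraries. Mcm7, whose printed window has 2, shared the highest and the lowest library but had another order between them. Pcna also shared the extremes, highest in LPC replicate 1 and lowest in LPC replicate 3. Any part of E2F factors or NF-Y in the order of the libraries was not tested.

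The loaders of the ring come next. Cdc6, whose product loads MCM2 to MCM7 with the origin recognition complex, stood at 38.6, 45.1 and 39.0 CPM in HPC against 56.9, 40.4 and 26.8 CPM in LPC. Cdt1, which brings the ring to the origin, stood at 108, 146 and 132 CPM in HPC against 155, 146 and 93.8 CPM in LPC. Both lay highest in LPC replicate 1 and lowest in LPC replicate 3, and the 2 libraries of Cdt1 numbered 2 were nearly equal. Orc1, the largest subunit of the origin recognition complex, stood at 14.5, 15.7 and 14.5 CPM in HPC against 17.5, 11.1 and 9.37 CPM in LPC, close to constant within HPC. Orc6, its smallest subunit, stood at 63.1, 65.0 and 43.0 CPM in HPC against 75.5, 59.5 and 37.1 CPM in LPC, with both libraries numbered 3 lowest. None of the 10 licensing genes passed, and 8 of their 10 log2 fold changes were negative, with a median of -0.022. Cdt1 overlaps Gm20388 on its own strand, so its count may hold reads of both.

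Genes that turn the loaded ring into a moving helicase had 3 of 5 log2 fold changes positive, with a median of 0.23, and none passed. Mcm10, needed to activate the helicase, stood at 78.7, 109.6 and 78.1 CPM in HPC against 105, 70.3 and 44.9 CPM in LPC. Cdc45, which joins the ring with GINS, stood at 57.6, 76.2 and 59.1 CPM in HPC against 77.7, 54.9 and 31.5 CPM in LPC. Mcm10 was highest in HPC replicate 2 and Cdc45 in LPC replicate 1, and LPC replicate 3 was lowest for both. Gins3, a GINS subunit, stood at 26.4, 29.5 and 26.4 CPM in HPC against 29.1, 19.1 and 16.7 CPM in LPC, and its 3 HPC libraries lay within a narrow band. It had one of the 3 smallest p-values of the 35 genes and still did not pass (log2 fold change 0.34, SE 0.21, 95% interval -0.14 to 0.82, edgeR adjusted p = 0.69).

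Gins1, Gins2 and Gins4 encode the other subunits of GINS, and Gins4 belongs to the wider list of replication genes and not to the 35. Gins1 stood at 18.1, 21.9 and 13.1 CPM in HPC against 23.7, 21.2 and 10.6 CPM in LPC, a wide spread within each group. Gins4 stood at 60.9, 67.6 and 53.9 CPM in HPC against 67.0, 65.4 and 47.5 CPM in LPC. Gins2 stood at 21.8, 22.9 and 20.8 CPM in HPC against 23.5, 23.4 and 20.1 CPM in LPC, and varied least of the 35 genes, with an SD of log2 CPM of 0.068 in HPC and 0.13 in LPC. The difference between Gins2 and the other genes was not tested. Gins2 overlaps Gse1 and Gm20388, both on the opposite strand, so that without strand in the counting their reads could be mixed.

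Among genes of the polymerases, the clamp and the fork, the log2 fold change was positive for 9 of 10, the median was 0.085 and none passed. Differences between roles were not tested. Signs also hung on single libraries: all 35 were positive without LPC replicate 1, and 24 were negative without LPC replicate 3. Pola1 encodes the catalytic subunit of the primase-associated polymerase and stood at 77.1, 99.6 and 64.9 CPM in HPC against 108, 75.0 and 46.9 CPM in LPC. Prim1, the primase subunit that makes RNA primers, stood at 73.1, 82.4 and 66.1 CPM in HPC against 82.7, 62.0 and 45.4 CPM in LPC. Pole, the catalytic subunit of the leading strand polymerase, stood at 95.5, 119 and 104 CPM in HPC against 133, 81.3 and 51.7 CPM in LPC. All of them were lowest in LPC replicate 3, and Pole had the largest step within LPC of these, 2.57-fold between replicates 1 and 3. The difference between HPC and LPC for Pole was -0.47, 0.55 and 1.01 on the log2 scale under numbers 1, 2 and 3.

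Pcna, the sliding clamp that holds polymerases on DNA, stood at 125, 147 and 99.2 CPM in HPC against 161, 125 and 84.1 CPM in LPC. Its means were 124 ± 23.9 CPM over the 3 HPC libraries and 123 ± 38.4 CPM over the 3 LPC libraries (SD), and it did not pass (log2 fold change 0.0056, SE 0.24, 95% interval -0.54 to 0.55, edgeR adjusted p = 0.997). The processed copy Pcna-ps2 on chromosome 19 is counted as a gene of its own in the deposited table, at 70.1, 79.3 and 56.4 CPM in HPC against 91.3, 64.8 and 49.1 CPM in LPC, so reads of the clamp gene may be divided between both. With the counts of Pcna and Pcna-ps2 added together, an alternative chosen after seeing the data, the log2 fold change was 0.0052 (edgeR adjusted p = 0.997). Pcna lies at chr2:132249162-132253314 in GRCm38, with no overlapping gene.

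Clamp loader and fork genes had LPC replicate 3 as their lowest library. Rfc3 and Rfc4, subunits of the loader that opens PCNA, stood at 48.0, 56.5 and 43.4 CPM in HPC against 57.1, 52.0 and 36.7 CPM in LPC, and at 49.6, 73.1 and 42.5 CPM in HPC against 68.2, 55.4 and 32.3 CPM in LPC. Dscc1, part of an alternative loader linked to sister chromatid cohesion, stood at 24.3, 30.2 and 19.7 CPM in HPC against 35.3, 21.7 and 12.98 CPM in LPC. For Rfc3 and Dscc1 the highest library was LPC replicate 1, and for Rfc4 it was HPC replicate 2. Fen1, the nuclease that trims Okazaki fragments, stood at 84.7, 92.9 and 75.2 CPM in HPC against 100.1, 67.2 and 46.2 CPM in LPC. Rpa2, a subunit of the protein that coats single-stranded DNA, stood at 49.7, 58.9 and 47.7 CPM in HPC against 67.8, 57.3 and 35.4 CPM in LPC. Tipin, which stabilises the fork with TIMELESS, stood at 75.1, 104 and 73.7 CPM in HPC against 98.6, 82.7 and 56.6 CPM in LPC. For these 6 genes the HPC values lay within the range of the LPC values except that HPC replicate 2 exceeded LPC replicate 1 for Rfc4 and Tipin.

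Nucleotide supply held the highest median log2 fold change of HPC over LPC among the roles of the 35 genes, at 0.29. All 4 of its 4 values were positive and no gene passed. The 7 nucleotide supply genes of the wider list of replication genes had a median of 0.072, with 4 values positive and 3 negative. Rrm2, the regulated small subunit of ribonucleotide reductase, stood at 397, 538 and 475 CPM in HPC against 458, 324 and 226 CPM in LPC. HPC replicates 2 and 3 were above every LPC library, but HPC replicate 1 was below LPC replicate 1, so the groups overlapped. Its means were 470.4 ± 70.6 CPM over the 3 HPC libraries and 336 ± 116 CPM over the 3 LPC libraries (SD), it had the highest log2 fold change and the smallest p of the 35 genes, and it did not pass (log2 fold change 0.49, SE 0.24, 95% interval -0.068 to 1.04, edgeR adjusted p = 0.61). With the replicate number as a block its log2 fold change was 0.54 (edgeR adjusted p = 0.24). DESeq2 with the same block also gave 0.54, closer to the threshold but without passing (DESeq2 adjusted p = 0.079).

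Rrm1, the large subunit of the same enzyme, stood at 359, 431 and 336 CPM in HPC against 411, 296 and 216 CPM in LPC. It did not pass (log2 fold change 0.29, SE 0.22, 95% interval -0.22 to 0.80, edgeR adjusted p = 0.76). Tk1, the thymidine kinase of the salvage pathway, stood at 127, 181 and 124 CPM in HPC against 153, 127 and 73.7 CPM in LPC. It did not pass (log2 fold change 0.29, SE 0.26, 95% interval -0.32 to 0.89, edgeR adjusted p = 0.81). Tyms, thymidylate synthase, stood at 69.9, 81.3 and 50.4 CPM in HPC against 85.5, 63.6 and 35.5 CPM in LPC. Rrm1 and Tk1 were highest in HPC replicate 2, as was Rrm2, and Tyms in LPC replicate 1, while LPC replicate 3 was lowest for all 4. Tk1 overlaps Afmid and Gm20708 on the opposite strand, and Rrm1 overlaps Gm45399 on its own strand.

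Chromatin genes of S phase split evenly, with 2 of 4 log2 fold changes positive. Chaf1a and Chaf1b, subunits of the chaperone that puts histones on new DNA, stood at 122, 154 and 138 CPM in HPC against 149, 116 and 81.6 CPM in LPC, and at 86.5, 108 and 89.1 CPM in HPC against 98.8, 82.7 and 57.1 CPM in LPC. Both were highest in HPC replicate 2. Uhrf1, which guides maintenance of DNA methylation behind the fork, stood at 228, 246 and 198 CPM in HPC against 354, 241 and 147 CPM in LPC, and had the lowest log2 fold change of the 35 genes without passing (log2 fold change -0.14, SE 0.28, 95% interval -0.77 to 0.49, edgeR adjusted p = 0.93). Slbp, which binds histone mRNA, stood at 55.7, 70.6 and 60.9 CPM in HPC against 79.8, 58.7 and 48.9 CPM in LPC. Uhrf1 and Slbp were highest in LPC replicate 1, and all 4 were lowest in LPC replicate 3. Replication-dependent histone mRNAs, which SLBP binds, lack a poly(A) tail and are poorly read by libraries primed on that tail.

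E-type cyclins activate CDK2 at the start of S phase. Ccne1 stood at 53.1, 46.3 and 46.9 CPM in HPC against 58.4, 38.6 and 44.4 CPM in LPC, the only one of the 35 genes whose lowest library was not LPC replicate 3, and it did not pass (log2 fold change 0.049, SE 0.16, 95% interval -0.32 to 0.42, edgeR adjusted p = 0.97). Ccne2 stood at 21.6, 13.5 and 13.3 CPM in HPC against 26.6, 11.3 and 8.43 CPM in LPC, and both libraries numbered 1 exceeded the other 4. Ccne2 had the widest ratio within LPC, 3.15-fold between replicates 1 and 3, and the widest interval, -0.88 to 1.00 for its log2 fold change of 0.063. In GRCm38, Ccne1 lies at chr7:38097984-38107534 with no overlapping gene, and Ccne2 at chr4:11191351-11204779, where Ints8 overlaps on the opposite strand.

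Precision bounded what the comparison could show. For 33 of the 35 genes the 95% interval excluded a 2-fold difference in either direction, not adjusted for the number of genes, and for Rrm2 and Ccne2 the interval reached 2-fold higher in HPC. The median half-width of these intervals was 0.56 on the log2 scale, against 0.37 for all tested genes. Orc6 overlaps Vps35, Cdc45 overlaps Ufd1, Rfc4 overlaps Eif4a2, Fen1 overlaps Tmem258 and Chaf1a overlaps Ubxn6, each on the opposite strand. These counts are uncertain if strand was not used in counting.

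**Figure D3:**
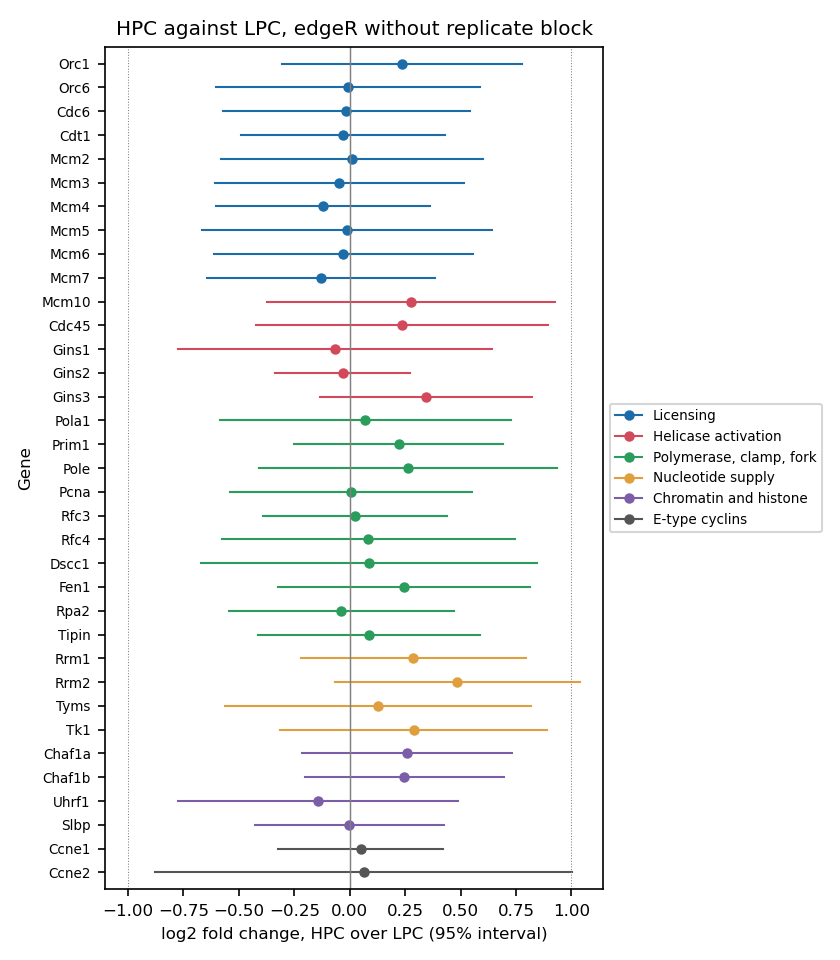
Points are log2 fold changes of HPC over LPC for the 35 DNA replication genes from the fit without the replicate block, with 95% intervals as lines, coloured and ordered by role, and dotted lines at 2-fold. Every interval includes 0, the lowest value is -0.14 for Uhrf1 and the highest 0.49 for Rrm2.

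When replicate number was added to the model as a block, 301 of all genes passed in edgeR (2.52%), and again none of the 35. At an unadjusted p under 0.05 in edgeR there was 1 of the 35, Rrm2 (2.86%), against 18.8% of all genes. Under the block 29 of the 35 log2 fold changes were positive and their median was 0.11. Without both libraries numbered 1, the blocked fit called 27 of the 35, all higher in HPC, and 2947 genes over the whole table (24.5%), with 1 residual degree of freedom. Without those numbered 2 or those numbered 3 it called none of the 35, and 0 and 196 genes over the whole table.

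The sign of the median of 0.063 turned without LPC replicate 3 and without HPC replicate 2. Without LPC replicate 1, all 35 log2 fold changes were positive, with a median of 0.33, and 12 of 35 had an unadjusted p under 0.05, against 13.4% of all genes in that fit. Without LPC replicate 3, 24 were negative, with a median of -0.15, and without HPC replicate 2, 21 were negative, with a median of -0.087. No gene of the 35 passed in any of the 6 fits that left out 1 library.

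Whether libraries of unlike number differed was tested in the model of group and replicate number together, on both number terms at once. Of the 35 genes, 15 (42.9%) had an unadjusted p under 0.05, against 25.3% of all genes. None passed after adjustment, against 3.18% of all genes. The smallest values were those of Orc6, Ccne2 and Tyms, with fitted differences between the highest and the lowest number of 0.79, 1.16 and 0.87 on the log2 scale (edgeR adjusted p = 0.051, 0.053 and 0.076). For Orc6 and Ccne2 these lay just above the threshold, and both passed with RLE scaling and with library size only, where 3.44% and 4.13% of all genes did. With no filter 6 of the 35 passed, against 6.71% of all genes. DESeq2's likelihood ratio test called 11 of the 35, against 7.98% of all genes. Without the libraries numbered 1, 30 of the 35 passed, against 31.1% of all genes, with 1 residual degree of freedom. Without those numbered 2 or 3 none of the 35 passed, and 232 and 69 genes did over the whole table. Mcm2, Pcna and Ccne1 gave fitted differences of 0.58, 0.64 and 0.39. None of them passed (edgeR adjusted p = 0.21, 0.11 and 0.18).

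**Figure D4:**
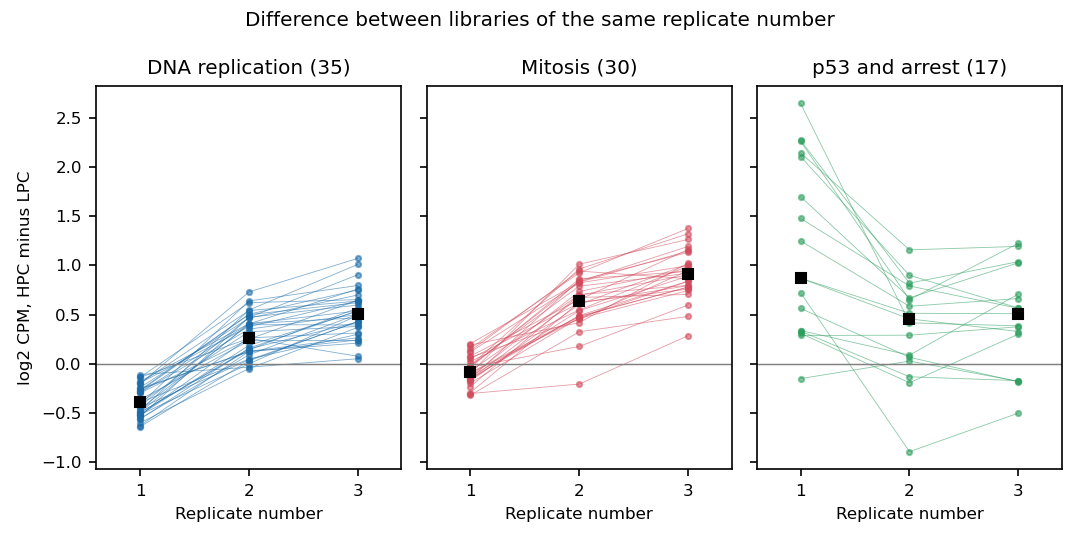
Each point is the log2 CPM difference, HPC minus LPC, between libraries of the same number, for 35 DNA replication, 30 mitosis and 17 p53 and arrest genes, with thin lines joining 1 gene and black squares at the medians. The replication medians were -0.39, 0.26 and 0.51, and the mitosis medians -0.081, 0.64 and 0.91 for numbers 1, 2 and 3, while the p53 and arrest median was above 0 under each number.

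A wider list of 58 other replication genes, all tested, gave no call with or without the block. The log2 fold change was positive for 43 of them and its median was 0.11. Their median differences were -0.27, 0.26 and 0.37 under numbers 1, 2 and 3. LPC replicate 3 was the lowest library for 43 of the 58. E2f8, a repressor of the E2F family, had the highest log2 fold change, 0.67, and stood at 54.4, 68.0 and 58.6 CPM in HPC against 60.4, 29.99 and 23.3 CPM in LPC (edgeR adjusted p = 0.57). Asf1b, a histone chaperone that hands histones to the assembly factor, was next at 0.46 and stood at 73.3, 83.5 and 67.5 CPM in HPC against 76.3, 53.3 and 33.5 CPM in LPC (edgeR adjusted p = 0.66). Dctpp1, a nucleotide pyrophosphatase, and Rpa3, the smallest subunit of the single-strand binding protein, had the lowest values, -0.28 and -0.26 (edgeR adjusted p = 0.79 and 0.77).

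Mitosis genes had LPC replicate 3 as the lowest library in 29 of 30, and HPC replicate 2 as the highest in 29 of 30. Their median log2 fold change was 0.45, with 10 of 30 at an unadjusted p under 0.05, against 9.37% of all genes. Under the block 22 of 30 had an unadjusted p under 0.05, against 18.8% of all genes. There was no call with or without the block. For 6 of the 30 mitosis genes HPC lay wholly above LPC, against 7.16% of all genes. Mki67, the proliferation marker, stood at 697, 874 and 659 CPM in HPC against 854, 566 and 389 CPM in LPC (edgeR adjusted p = 0.80). The libraries numbered 1 gave a median difference of -0.081 for mitosis genes and -0.39 for replication genes, and the lists were not tested against each other.

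p53 targets and arrest genes had their own order of libraries. Of 20 listed p53 target and arrest genes, 19 were in the deposited table and 17 were tested. The 17 had a median log2 fold change of 0.68, and 13 of them were highest in HPC replicate 1. Under the block 6 of the 17 passed, all higher in HPC, against 2.52% of all genes. Cdkn1a encodes p21, the inhibitor of cyclin E with CDK2, and stood at 586, 184 and 331 CPM in HPC against 121, 104 and 161 CPM in LPC, with no overlap between groups. It did not pass without the block (log2 fold change 1.51, edgeR adjusted p = 0.24) and passed under the block, at a log2 fold change of 1.37 (edgeR adjusted p = 0.042). In HPC replicate 1, where Cdkn1a was highest, the median replication gene lay at 0.015 above its mean over the 6 libraries, and mitochondrial genes took 3.21% of the counts, against 2.07% to 2.56% in the other libraries. Their part in the levels of the replication genes was not tested.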

How the data were processed

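The authors deposited raw counts of reads per gene, whole numbers that are not normalized, with 1 column per library. Per the labels' protocols, libraries were made from total RNA with a Lexogen QuantSeq kit for transcript 3' ends and read on a NextSeq 500 instrument. STAR and the mouse build GRCm38 were used, per the submitters' processing notes. The counting program, annotation release, any use of molecular identifiers and strand setting were not given in the sources used here. Counts at 3' ends do not scale with transcript length.

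Computed here were TMM-scaled CPM, the edgeR 4.0.16 quasi-likelihood test in R 4.3.3 after filterByExpr (group as the only term, 4 residual degrees of freedom, Benjamini-Hochberg over 11921 genes), and 95% intervals from its standard errors. Log2 CPM used a prior count of 2. DESeq2 1.42.0, limma-voom (limma 3.58.1), other scalings, no filter, the replicate block and left-out libraries were alternatives. The test scripts were checked on simulated counts. No 2 libraries agreed within sampling noise (chi-square per degree of freedom at least 25.9).

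Same-numbered libraries deviated together from their group means (correlations 0.42, 0.35 and 0.65, each above the minimum of 0.1). Between libraries of unlike number the highest correlation was 0.20 for numbers 1 and 2, also above that minimum, and -0.048 for number 3. The pairing was thus clearest for number 3, and it comes from the data, not the labels. It changed no call among the 35 genes.

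The 35 genes and all lists were chosen with earlier results of these data known. Test values are given for the 3 smallest p-values and the 3 highest and 3 lowest log2 fold changes of HPC against LPC, the 3 smallest p-values of the replicate number test, and Mcm2, Pcna and Ccne1. Other pathway genes are named by the 2 highest and 2 lowest log2 fold changes. Gins2, Ccne2 and Pole were also singled out after their values were seen.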

Additional observations from a re-analysis of the deposited data

How the results depend on the processing

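No member of the 35 passed HPC against LPC under any scaling, filter, tool or left-out library, or with the replicate block, except without both libraries numbered 1, where the blocked fit called 27 with 1 residual degree of freedom. Over all genes the count of 5 became 28 with no filter, 224 with DESeq2, 301 with the replicate block and 500 with the replicate block in DESeq2, ran from 0 to 43 without 1 library, and was 2947, 0 and 196 with the replicate block and without the libraries numbered 1, 2 and 3. For replicate number, the count of 0 among the 35 became 2, 1 and 2 with RLE, upper quartile and library size scaling, 6 with no filter and 11 with DESeq2's likelihood ratio test, and ran from 0 to 30 without 1 number, highest without number 1. Over all genes, its count of 379 became 1029 with no filter, 933 with DESeq2 and 0 without group in the model (1 term fewer), and ran from 69 to 3732 without 1 number.

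Signs of values near 0 turned in several settings. Log2 fold changes became -0.016 for Mcm2 and -0.022 for Pcna with upper quartile scaling and -0.0073 and -0.014 with library size only. Without 1 library they ran from -0.24 to 0.26 for Mcm2, -0.21 to 0.25 for Pcna, -0.067 to 0.23 for Ccne1, -0.41 to 0.21 for Uhrf1, -0.35 to 0.044 for Mcm7 and -0.31 to 0.15 for Mcm4. With the replicate block they were 0.24, 0.17 and 0.21 for Uhrf1, Mcm7 and Mcm4 without number 1, -0.066 and -0.031 for Pcna and Ccne1 without number 2, and -0.17 and -0.062 for Mcm2 and Pcna without number 3. The cause was not tested, and the full replicate block changed no call among the 35 genes. The scalings left the median log2 fold change of the 35 genes at 0.041 to 0.065, and it was -0.15 with LPC replicate 3 left out and 0.33 with LPC replicate 1 left out. Counts were at least 126 for each of the 35 genes, and intervals cover counting error and the spread of 3 libraries.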
